A study of Mus musculus with 30 samples.

Results

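The 10 genes described here encode the 5 subunits of the transcription factor NF-κB (Nfkb1, Nfkb2, Rel, Rela and Relb) and 5 proteins that restrain or modify its activity (Nfkbia, Nfkbie, Nfkbiz, Tnfaip3 and Tnip1). They were chosen by name, out of 38031 genes to which the transcripts of the count table were summed, and all 10 passed the filter on low counts. The libraries were made from cultured primary microglia, macrophages that reside in the brain, of C57BL/6 mice at postnatal day 21. The mice were wild type (WT) or lacked Lrrk2 (Lrrk2-/-, here KO), which encodes a protein with kinase and GTPase domains that is mutated in some families with Parkinson's disease. The cultures were untreated controls (5 WT, 6 KO), were given LPS, a bacterial ligand of a Toll-like receptor (6 WT, 4 KO), or received α-synuclein fibrils, aggregates of the kind found in Parkinson's disease (4 WT, 5 KO). The sources used here do not give doses, times of treatment or sex.

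NF-κB subunits work as dimers that IκB proteins hold in the cytoplasm. Stimuli such as Toll-like receptor ligands activate the IKK kinases, which mark the IκB proteins for degradation, and the freed dimers move to the nucleus and bind κB sites. Among the best known NF-κB target genes are those of its own inhibitors, so that activation is followed by renewed synthesis of the proteins that end it. In microglia and other macrophages this circuit shapes cytokine production.

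Gene totals ranged from 8936310 to 35677005 counts per library, with a median of 20432234, and each member had between 128 and 45020 counts in any library. Lrrk2 lay between 0.731 and 4.68 CPM, the count scaled to library size, in KO libraries and between 6.87 and 16.7 CPM in WT libraries. The summed level of 13 microglia markers was 5215 to 8425 CPM, with Siglech at 0 in all libraries of 4 of the groups. Markers of other cells differed between libraries. In the 4 WT fibril libraries the sum of 9 astrocyte markers was 16.4 to 23.5 CPM and that of 6 fibroblast markers 0.579 to 1.11 CPM, against 23.4 to 205 CPM and 1.17 to 123 CPM in WT controls. Both low ends were those of WT control replicate 6, and the next lowest WT controls were at 53.5 and 18.8 CPM. WT LPS replicate 6 was also low, at 16.6 and 0.504 CPM. The low sums were thus not limited to fibril libraries, and their part in the WT fibril comparison was not tested. The 7 markers of other leukocytes were higher in the WT fibril libraries, at a sum of 1.34 to 2.38 CPM against 0.101 to 0.298 CPM in WT controls, and stayed at or below 2.38 CPM in every library. Whether replicates were separate cultures or animals is not stated in the labels, and the p-values therefore measure only how these samples spread, which may be technical. In such bulk samples fewer cells of a type and less RNA per cell cannot be told apart. CPM values were scaled with TMM factors, and tests are edgeR quasi-likelihood tests over 14346 genes with Benjamini-Hochberg adjustment, in which a gene was called at an adjusted p under 0.05.

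Because most members rose together with LPS, their promoters were searched for the κB consensus (both strands, overlapping matches merged). RefSeq promoter windows of 300 bases, from 250 before to 50 after the start, were found for 7 of the 10 members on GRCm38.p6. A match lay in the windows of 6 of these 7 genes (Nfkb2, Rel, Nfkbia, Nfkbie, Tnfaip3 and Tnip1) and not in that of Rela. Among all 27025 genes with a window, 5.14% held a match, and among all 32851 windows 4.51% did. The stretches that hold the matches are shown 5′ to 3′ on the strand of the gene, with the κB match in capitals. For Nfkb2 and Tnfaip3, whose matches fall inside the annotated span of the gene, 30 bases around a match are given. Of the Nfkb2 matches whose positions are given below, the one nearest the start is not shown.
Nfkbia, chr12:55492648-55492777, minus strand: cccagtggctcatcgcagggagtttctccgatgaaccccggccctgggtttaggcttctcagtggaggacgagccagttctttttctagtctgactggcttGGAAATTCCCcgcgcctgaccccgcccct
Nfkbie, chr17:45555570-45555699, plus strand: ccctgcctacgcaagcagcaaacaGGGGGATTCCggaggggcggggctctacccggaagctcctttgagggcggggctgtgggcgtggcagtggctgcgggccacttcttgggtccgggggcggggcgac
Tnip1, chr11:54962941-54963070, minus strand: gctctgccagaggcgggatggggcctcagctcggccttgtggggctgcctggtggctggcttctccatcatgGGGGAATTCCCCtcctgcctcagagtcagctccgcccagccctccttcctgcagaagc
Rel, chr11:23770971-23771100, minus strand: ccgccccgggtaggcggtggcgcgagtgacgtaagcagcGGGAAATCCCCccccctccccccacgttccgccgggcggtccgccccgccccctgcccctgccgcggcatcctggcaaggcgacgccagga
Nfkb2, chr19:46304688-46304717, plus strand: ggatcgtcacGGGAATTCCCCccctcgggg
Tnfaip3, chr10:19015516-19015545, minus strand: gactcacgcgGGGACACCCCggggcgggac
Tnfaip3, chr10:19015411-19015440, minus strand: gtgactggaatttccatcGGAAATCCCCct
On mm10, the build named for the deposited counts, Nfkb1 lies at chr3:135584655-135691547 (minus strand), Nfkbiz at chr16:55811375-55838899 (minus strand), Rela at chr19:5637483-5648130 (plus strand) and Relb at chr7:19606217-19629438 (minus strand), by GENCODE M21. The first base of the match lay 29 bases before the start in Nfkbia, 106 in Nfkbie, 58 in Tnip1, 92 in Rel, 39 and 11 in Nfkb2, and 125 and 12 in Tnfaip3. Windows at other RefSeq starts held further matches for Nfkb2 and none for Tnfaip3. A match, or the lack of one, describes the letters of these windows and nothing more.

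In untreated microglia the 5 subunits differed in level. Levels of different genes are compared here as counts per kilobase of transcript scaled to the same total in each library (TPM-like). Nfkb1, the precursor of the smaller DNA-binding subunit, was the most abundant in WT controls, at 71.4 ± 10.05 TPM-like. Nfkb2, the precursor subunit of the noncanonical arm, followed at 52.4 ± 10.1 (SD, n = 5), then Rela, the main transactivating subunit, at 43.7 ± 5.21, and Relb, the partner of the Nfkb2 product, at 42.8 ± 6.87. Rela and Relb lay within each other's spread, and Nfkb2 overlapped both. Rel, the inducible subunit c-Rel, was far lower at 4.41 ± 2.67. It made up 2.00 ± 0.954% of the summed subunit level in WT controls, against 33.3 ± 1.38% for Nfkb1. Of the inhibitors, Nfkbia, which encodes the classical inhibitor IκBα, was the most abundant at 114 ± 37.0 TPM-like. Nfkbie, encoding IκBε, was the lowest at 23.8 ± 5.33. Nfkbiz (51.8 ± 34.5), Tnfaip3 (40.7 ± 19.5) and Tnip1 (32.8 ± 9.77) overlapped.

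LPS was accompanied by higher levels of all 10 members in both genotypes. In WT 10 of 10 were called higher, against 7.1% of all genes tested, and their median log2 fold change was 1.60 against -0.02 over all genes. In KO 10 of 10 were called higher, against 6.36% of all genes, with a median of 1.42 against -0.04. The inhibitors had a median of 2.99 in WT and 3.06 in KO, and the subunits one of 0.79 and 0.61. Every LPS library was above every control for 10 members in WT, as it was for 5.51% of genes, and for 8 members in KO, as it was for 4.84% of genes. The exceptions in KO were Rela and Tnip1.

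**Figure D1:**
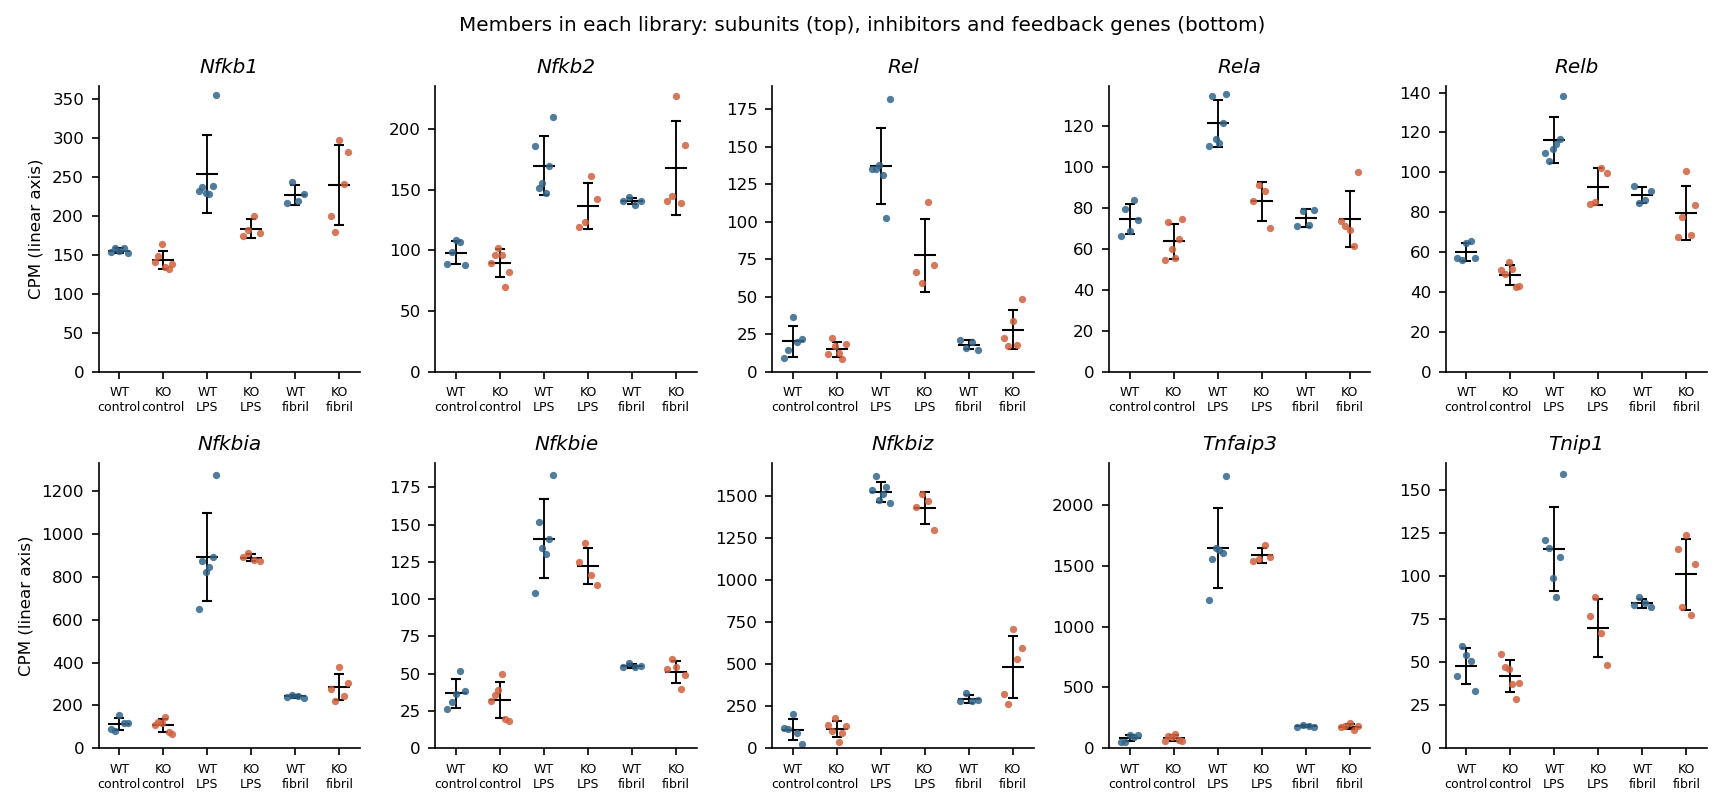
CPM of each member in each library on linear axes starting at 0, WT in blue and KO in orange, with the group mean and SD as black bars; subunits are in the top row and inhibitors in the bottom row. Rel, Nfkbia, Nfkbie, Nfkbiz and Tnfaip3 separate LPS libraries from all others, while the LPS libraries of WT and KO separate for Nfkb1, Rela, Relb and Tnip1.

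Among the subunits Rel rose most. In WT controls it was at 8.89, 14.6, 36.4, 20.0 and 21.8 CPM, and in the 6 WT LPS libraries at 103 to 182 CPM with a median of 135. In KO it ranged from 8.40 to 22.3 CPM in controls and was at 66.7, 59.4, 113 and 71.5 CPM with LPS. No LPS library of either genotype overlapped its controls. The log2 fold change was 2.76 ± 0.31 (SE) in WT and 2.36 ± 0.31 in KO (adjusted p = 1.48e-07 and 2.16e-06). In levels per length, Rel reached 7.35 ± 0.797% of the summed subunits in WT LPS and 5.55 ± 1.08% in KO LPS libraries, and stayed the lowest of the 5.

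The other subunits rose by less than 1 on the log2 scale. Relb rose by 0.95 ± 0.09 in WT and by 0.93 ± 0.10 in KO, Nfkb2 by 0.79 ± 0.12 and 0.61 ± 0.13, and Nfkb1 by 0.70 ± 0.11 and 0.36 ± 0.12. Rela was at 66.5, 79.7, 68.8, 84.0 and 74.4 CPM in WT controls and at 110.4 to 136 CPM with LPS, with a median of 118. In KO Rela was at 54.6 to 74.4 CPM in controls and at 83.3, 91.4, 88.3 and 70.0 CPM with LPS, so the lowest LPS library overlapped the controls. The rise was 0.70 ± 0.10 in WT and 0.38 ± 0.11 in KO (adjusted p = 1.26e-05 and 0.0178). The KO calls of Nfkb1 and Rela were close to the threshold. That of Nfkb1 (adjusted p = 0.0422) was lost in 13 of 40 alternative settings, among them without each of the 4 KO LPS libraries (0.0631 to 0.143) and each of 5 of the 6 KO controls (0.0545 to 0.0792). That of Rela was lost in 5 settings, among them without KO LPS replicate 2 (0.0810) or 3 (0.0773), and the highest value was 0.164.

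Of the inhibitors, Tnfaip3 rose most. The gene, which encodes a ubiquitin-editing enzyme that dampens signalling upstream of IKK, was at 55.6, 55.5, 105, 89.8 and 112 CPM in WT controls and at 1218 to 2237 CPM with LPS, with a median of 1617. In KO it ranged from 60.8 to 121 CPM in controls and was at 1536, 1556, 1673 and 1574 CPM with LPS. The rise was 19.7-fold in WT (log2 4.30 ± 0.21, adjusted p = 3.12e-14) and 18.5-fold in KO (4.21 ± 0.20, adjusted p = 2.53e-14). Nfkbiz encodes IκBζ, a nuclear member of the IκB family that acts as a cofactor of transcription. It rose 13.8-fold in WT (3.79 ± 0.37), from 118, 114, 204.04, 88.2 and 27.6 CPM to between 1458 and 1619.9 CPM. In KO it rose 12.5-fold (3.64 ± 0.36), to 1438, 1511, 1472 and 1297 CPM. Nfkbia rose 7.93-fold in WT (2.99 ± 0.20), from 92.3, 81.4, 153, 119 and 117 CPM to a median of 861 CPM, and 8.32-fold in KO (3.06 ± 0.19). Its 4 KO LPS libraries lay within 873 to 913 CPM, inside the range of 649 to 1273 CPM of WT with LPS.

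Nfkbie and Tnip1 completed the group. Nfkbie rose by 1.93 ± 0.20 in WT and 1.92 ± 0.20 in KO, with LPS libraries at 104 to 183 CPM and 109.6 to 137 CPM. Tnip1 encodes a ubiquitin-binding adaptor that works with the product of Tnfaip3. It was at 41.7, 59.2, 54.3, 50.9 and 33.4 CPM in WT controls and 88.1 to 159 CPM with LPS. In KO it was at 28.4 to 54.7 CPM in controls and at 77.0, 87.7, 67.0 and 48.2 CPM with LPS, where replicate 4 fell inside the range of the controls. Tnip1 rose by 1.27 ± 0.18 in WT (adjusted p = 4.81e-06) and 0.74 ± 0.18 in KO (adjusted p = 0.00588). In KO LPS replicate 4 the summed markers of astrocytes (195 CPM) and of the oligodendrocyte lineage (411 CPM) were the highest of the 4, and their part in the result was not tested.

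Per length, the summed inhibitors were about as abundant as the summed subunits without treatment and several times as abundant with LPS. The inhibitors summed to 263 ± 92.2 TPM-like in WT controls and 2166 ± 231 with LPS, while the subunits summed to 215 ± 32.4 and 356 ± 35.6. In KO the inhibitors went from 255 ± 61.5 to 2096 ± 174 and the subunits from 196 ± 29.6 to 270.4 ± 50.3. The ratio of the sums was 1.21 ± 0.249 in WT controls, 6.10 ± 0.478 in WT LPS, 1.29 ± 0.179 in KO controls and 7.85 ± 0.745 in KO LPS libraries. In KO LPS libraries it ranged from 6.84 to 8.42, above the range of 5.14 to 6.44 in WT LPS libraries. These sums are descriptions and were not tested.

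**Figure D2:**
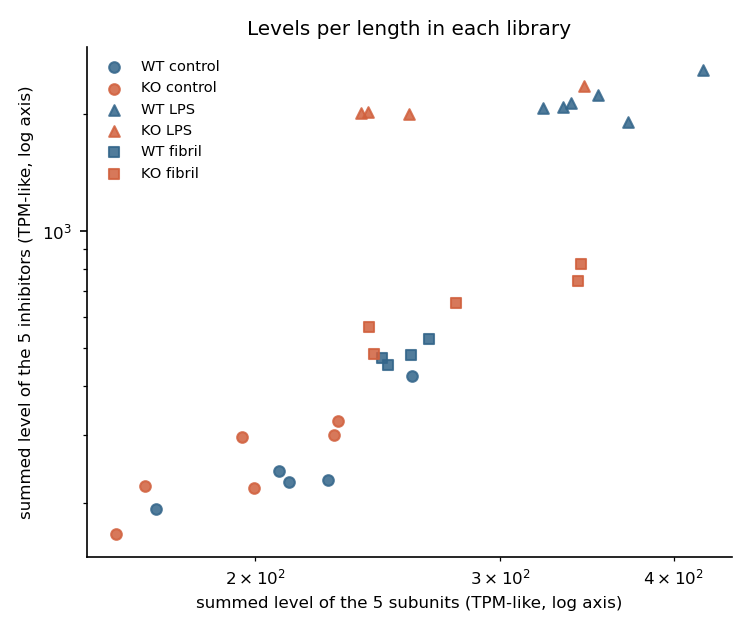
Summed level per length (TPM-like, both axes logarithmic) of the 5 inhibitors against that of the 5 subunits in each of the 30 libraries, WT in blue, KO in orange, with circles for controls, triangles for LPS and squares for fibrils. The LPS libraries form a band at 1907 to 2587 TPM-like of inhibitors, at subunit sums of 238 to 345 in KO and 322 to 420 in WT.

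The count table gives transcripts, so the make-up of each member could also be followed. For the 6 members with more than 1 counted transcript, the share held by the most abundant transcript was compared with controls by an exact permutation test (two-sided), with adjustment over 24 tests, of which 3 were called. Nfkb1-201, which codes for the full-length protein, held 66.8, 74.5, 56.9, 68.2 and 64.4% of the Nfkb1 counts in WT controls. In the WT LPS libraries it held 33.6 to 49.0%, with a median of 40.7%. These groups did not overlap (mean 66.2 ± 6.37%, n = 5, against 41.7 ± 5.37%, n = 6; exact permutation p = 0.00433, the smallest this design can give, adjusted p = 0.0346). In KO the LPS libraries spread from 25.0 to 70.1% around controls at 49.8 to 61.5% and the difference was not called (exact permutation, adjusted p = 0.327). With fibrils Nfkb1-201 rose in KO, to 65.1, 69.9, 66.7, 72.4 and 81.7% (mean 71.2 ± 6.54%, n = 5, against 58.1 ± 4.28%, n = 6; exact permutation, adjusted p = 0.0346). Nfkb1-206, whose coding sequence is as long (2913 bases), held 16.2 ± 4.62% in KO controls and 11.8 ± 6.44% in KO fibril libraries. In WT it held 12.1 ± 5.37% in controls and 11.9 ± 4.62% with LPS. The share of Nfkb1-201 is thus not that of all transcripts with a coding sequence of this length. How the counts were split among transcripts rests on a counting program that no label names.

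Transcripts of Nfkb1 annotated with a retained intron, which carry no coding sequence, held 15.3, 5.92, 13.4, 14.3 and 9.71% of Nfkb1 counts in WT controls and 29.9 to 40.5% in WT LPS libraries. In KO they held 6.37 to 17.1% in controls and 34.9, 29.1, 37.6 and 22.0% with LPS. In both genotypes the LPS libraries lay above all controls for Nfkb1. The other 3 members with such transcripts did not share this in WT. Relb overlapped its controls in WT (11.7 to 16.2% against 1.80 to 13.3%) and lay above them in KO (10.4 to 15.2% against 1.84 to 9.52%). Tnfaip3 lay below them in WT (21.2 to 25.0% against 26.6 to 36.7%) and overlapped them in KO, and Tnip1 overlapped in both. With fibrils the share was 8.12 ± 0.523% in WT and 8.74 ± 3.11% in KO, within the range of the controls apart from 1 KO library, at 4.72%. When only protein-coding transcripts were counted, the LPS difference of Nfkb1 was 0.20 in WT (edgeR adjusted p = 0.389) and -0.0035 in KO (edgeR adjusted p = 0.991), so neither call was kept. The fibril calls of Nfkb1 were kept under this setting. A gene annotated on the same strand, Gm43430, overlaps Nfkb1.

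Nfkbiz also changed its make-up. Nfkbiz-204 starts at a downstream site of the gene and held 82.7, 79.7, 83.2, 86.6 and 83.9% of Nfkbiz counts in WT controls. With LPS it held 59.5 to 75.9% in WT, below all controls (mean 70.1 ± 5.79%, n = 6, against 83.2 ± 2.47%, n = 5; exact permutation p = 0.00433, adjusted p = 0.0346). Nfkbiz-203, which starts upstream and encodes a shorter protein, held 15.1 ± 2.89% in WT controls and 28.5 ± 5.83% in WT LPS libraries. In KO the Nfkbiz-204 shares with LPS, at 70.9, 70.0, 80.6 and 83.3%, overlapped the controls at 60.4 to 94.1%, and the difference was not called (exact permutation, adjusted p = 0.506). None of the 3 calls on shares was kept without the 7 libraries that stand apart (adjusted p = 0.274 for each) or with protein-coding transcripts only (0.104 to 0.329). The Nfkbiz difference was -11.7 percentage points without the 7 libraries, against -13.1 with all.

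**Figure D3:**
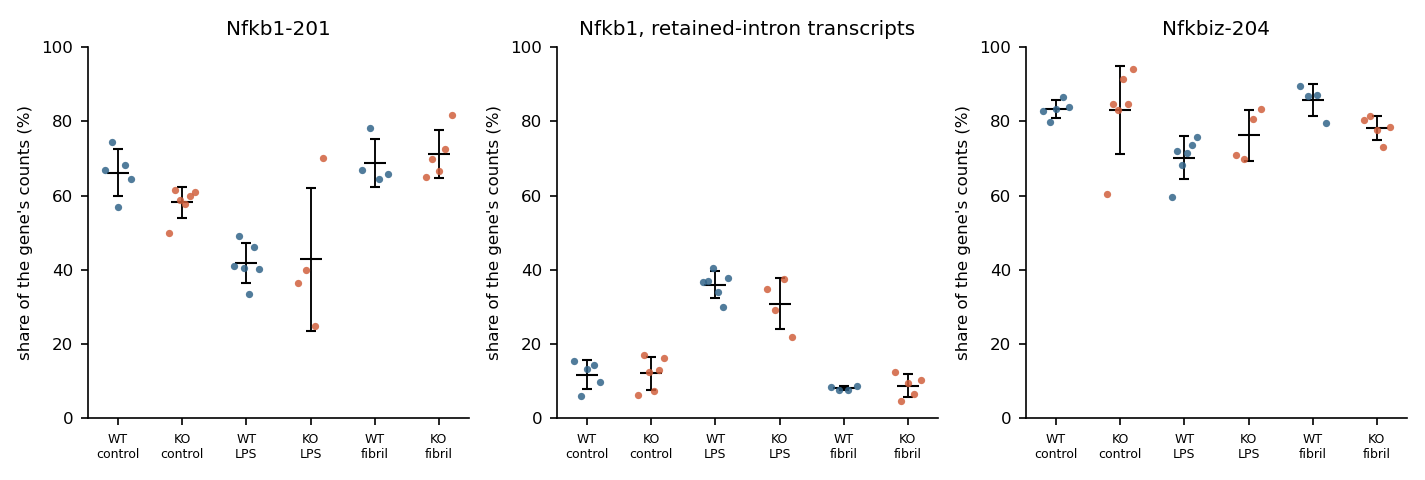
Share of a gene's counts (percent, axis from 0 to 100) in each library for Nfkb1-201, for all retained-intron transcripts of Nfkb1 together and for Nfkbiz-204, WT in blue and KO in orange, with mean and SD. In LPS libraries the retained-intron share lies at 22.0 to 40.5%, above the 4.72 to 17.1% of all other libraries.

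Fibrils were also accompanied by higher levels of most members. In WT 8 of 10 were called higher, against 13.8% of all genes, and in KO 9 of 10, against 12.2%. The median was 0.57 in WT and 0.90 in KO, against -0.05 and -0.04 over all genes. Every fibril library was above every control for the same 8 members in WT, as it was for 16.4% of genes, and for 7 in KO, as it was for 4.68% of genes. The 4 WT fibril libraries lay close together. Their SD was 1.89% (Nfkb2) to 17.0% (Rel) of a member's mean CPM. It was 11.7% (Tnfaip3) to 46.7% (Rel) in KO fibril libraries and 1.99% (Nfkb1) to 57.6% (Nfkbiz) in WT controls. Whether the WT fibril libraries were separate cultures is not stated, and the part of their narrow spread was not tested. Rel and Rela were not called in WT, at -0.17 ± 0.32 (adjusted p = 0.725, 95% interval -0.84 to 0.49) and 0.01 ± 0.12 (adjusted p = 0.964, 95% interval -0.23 to 0.24). In KO Rela was at 0.22 ± 0.10 (adjusted p = 0.125).

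**Figure D4:**
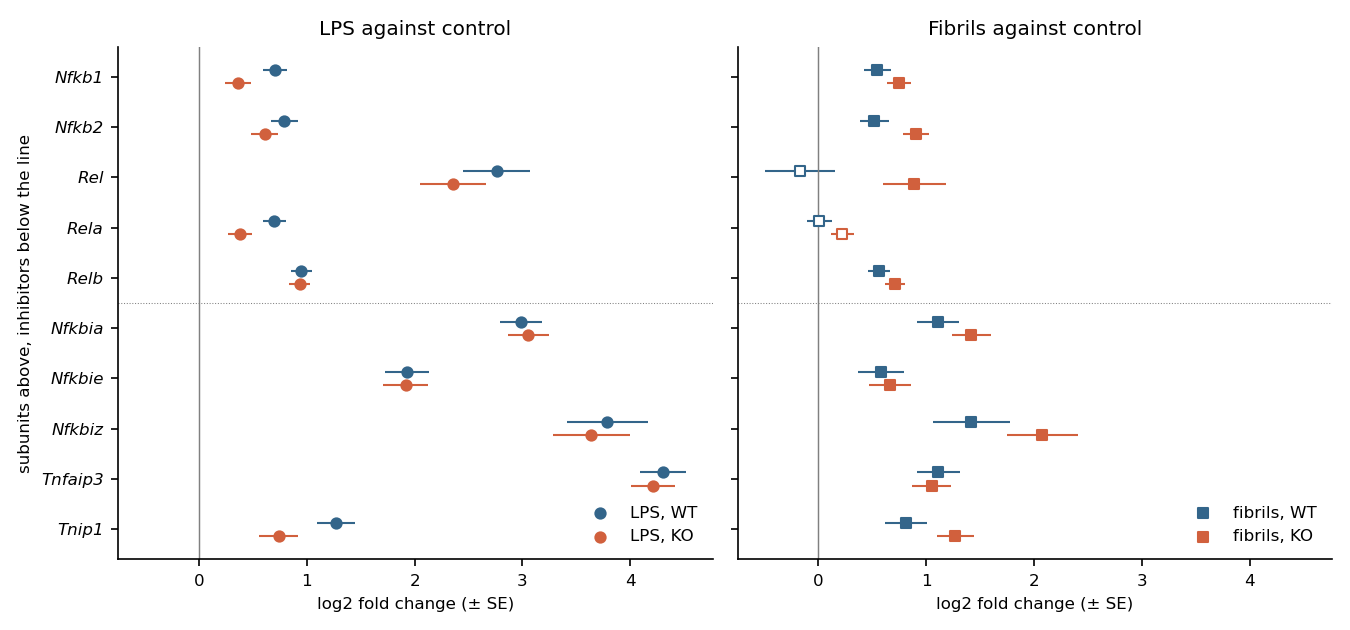
Log2 fold change with its SE for each member, LPS against control on the left and fibrils against control on the right, WT in blue and KO in orange; filled symbols passed the test and open symbols did not. With LPS the changes span 0.36 to 4.30 and all pass, while with fibrils they span -0.17 to 2.08 and Rel in WT and Rela in both genotypes do not pass.

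Among the inhibitors Nfkbiz had the largest change with fibrils. It was at 281, 331, 281 and 289 CPM in WT fibril libraries, all above the WT controls, and rose by 1.42 ± 0.36 (adjusted p = 0.00457). In KO it was at 320.3, 266, 707, 532 and 596 CPM, above the controls at 39.0 to 183 CPM, and rose by 2.08 ± 0.33 (adjusted p = 4.24e-05). Nfkbia was at 239.8, 251, 244 and 237 CPM in WT and at 278, 221, 379.6, 244 and 305 CPM in KO, a rise of 1.11 ± 0.20 and 1.42 ± 0.18. Tnfaip3 rose by 1.11 ± 0.20 in WT, to 177, 191, 182 and 172 CPM, and by 1.05 ± 0.18 in KO. Tnip1 rose by 0.81 ± 0.19 in WT and by 1.27 ± 0.17 in KO, where it reached 116, 81.9, 124, 77.3 and 107 CPM. Nfkbie rose by 0.58 ± 0.21 in WT (adjusted p = 0.0408), a call lost in 13 of 40 settings, up to 0.150, among them without WT control replicate 1, 2 or 3, any of the WT fibril libraries or KO LPS replicate 3. In KO it rose by 0.67 ± 0.19 (adjusted p = 0.0126), a call lost in 1 setting, with only the groups compared (0.0911).

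Of the subunits Nfkb1, Nfkb2 and Relb rose with fibrils in both genotypes. Nfkb1 was at 216, 244, 219 and 229 CPM in WT (0.54 ± 0.12, adjusted p = 0.00197) and at 199, 179, 297, 241 and 282 CPM in KO (0.74 ± 0.11, adjusted p = 2.15e-05), above all controls of its genotype. Nfkb2 rose by 0.52 ± 0.13 in WT and 0.91 ± 0.12 in KO, and Relb by 0.56 ± 0.10 and 0.71 ± 0.09. Rel rose in KO (0.89 ± 0.29, adjusted p = 0.0266), from a median of 15.0 CPM to 22.7, 17.5, 33.7, 18.1 and 48.5 CPM, and 3 of these 5 libraries exceeded the highest control, at 22.3 CPM. That call was lost in 8 of 40 settings, among them without KO fibril replicate 5 (adjusted p = 0.143) or 3 (0.0693), without KO control replicate 1 (0.0557) or 5 (0.0671), and without the 7 libraries that stand apart (0.341, the highest). Against WT controls, 6 of 9 astrocyte and 5 of 6 fibroblast markers were called lower in WT fibril libraries. Of 14346 genes, 4216 were called in that comparison in either direction, 1985 of them higher. The part of these markers in the members' values was not tested.

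Fibrils and LPS were then compared directly. In WT 7 members were lower with fibrils than with LPS (Rel, Rela, Relb, Nfkbia, Nfkbie, Nfkbiz and Tnfaip3), against 18.9% of all genes. In KO 5 were lower (Rel, Nfkbia, Nfkbie, Nfkbiz and Tnfaip3), against 12.7%, and 2 were higher (Nfkb1 and Tnip1), against 13.8%. The largest differences were those of Tnfaip3, at -3.19 ± 0.22 in WT and -3.16 ± 0.21 in KO, and of Rel in WT, at -2.93 ± 0.35. Nfkb1 was at -0.16 ± 0.12 in WT (adjusted p = 0.306) and 0.38 ± 0.13 in KO (adjusted p = 0.0237), and Nfkb2 was at -0.27 ± 0.13 and 0.30 ± 0.14 (adjusted p = 0.107), neither of them called. Tnip1 was at -0.46 ± 0.19 in WT and 0.53 ± 0.19 in KO, with adjusted p = 0.0545 and 0.0429. The KO call of Nfkb1 was lost in 6 and that of Tnip1 in 11 of 40 settings, with adjusted p up to 0.105 and 0.177. The latter was without KO LPS replicate 4, where Tnip1 was at 0.39. The WT difference of Tnip1 was called in 13 of 40 settings, among them DESeq2 (adjusted p = 0.0270) and only the groups compared (0.0119, the lowest of a range up to 0.201).

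The genotypes were compared within each treatment. Without treatment no member was called, against 0.321% of all genes in either direction (edgeR; 2 members at an unadjusted p under 0.05, and 0 members called by DESeq2 and by limma-voom). Relb came closest, at 57.2, 56.3, 64.4, 65.4 and 57.1 CPM in WT and 42.3 to 55.1 CPM in KO (-0.31 ± 0.09, adjusted p = 0.275). It was the only member with all KO controls below all WT controls, as was the case for 0.362% of genes. The 95% interval of the difference ran from -0.35 to 0.11 for Nfkb1, from -0.44 to 0.29 for Nfkbia and from -0.34 to 0.40 for Tnfaip3.

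With LPS 3 members were lower in KO than in WT (Nfkb1, Rela and Tnip1), against 1.25% of all genes. The KO libraries lay below all WT libraries for these 3 and for Relb, as they did for 5.21% of genes. Rela was at 83.3, 91.4, 88.3 and 70.0 CPM in KO and 110.4 to 136 CPM in WT, a difference of -0.54 ± 0.11 (adjusted p = 0.0112). Of 40 settings, the Rela call was lost only without KO LPS replicate 4 (adjusted p = 0.0964, the highest of a range from 2.82e-04). Nfkb1 was at 174, 182, 201 and 178 CPM in KO and 228 to 355 CPM in WT (-0.46 ± 0.12, adjusted p = 0.0471). Tnip1 was at 77.0, 87.7, 67.0 and 48.2 CPM in KO and 88.1 to 159 CPM in WT (-0.73 ± 0.19, adjusted p = 0.0452).

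The Nfkb1 and Tnip1 calls rested on narrow margins, lost in 20 and 16 of the 40 settings with adjusted p up to 0.168 and 0.202. They included leaving out WT LPS replicate 6 (Nfkb1 -0.34, adjusted p = 0.112; Tnip1 -0.61, adjusted p = 0.114) and KO LPS replicate 4 (adjusted p = 0.158 and 0.202). Without KO LPS replicate 4 no member was called. Of the WT LPS libraries, replicate 6 had the lowest sums of astrocyte (16.6 CPM) and fibroblast markers (0.504 CPM) and the highest of endothelial markers (19.9 CPM), and KO LPS replicate 4 had the highest sum of astrocyte markers in its group (195 CPM). Their part in the result was not tested. Of the other inhibitors, Nfkbia (-0.01 ± 0.19), Nfkbie (-0.21 ± 0.21), Nfkbiz (-0.09 ± 0.35) and Tnfaip3 (-0.06 ± 0.19) were not called, with 95% intervals that reached -0.40, -0.63, -0.80 and -0.45 at their lower ends. Rel was at -0.82 ± 0.31 (adjusted p = 0.167).

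**Figure D5:**
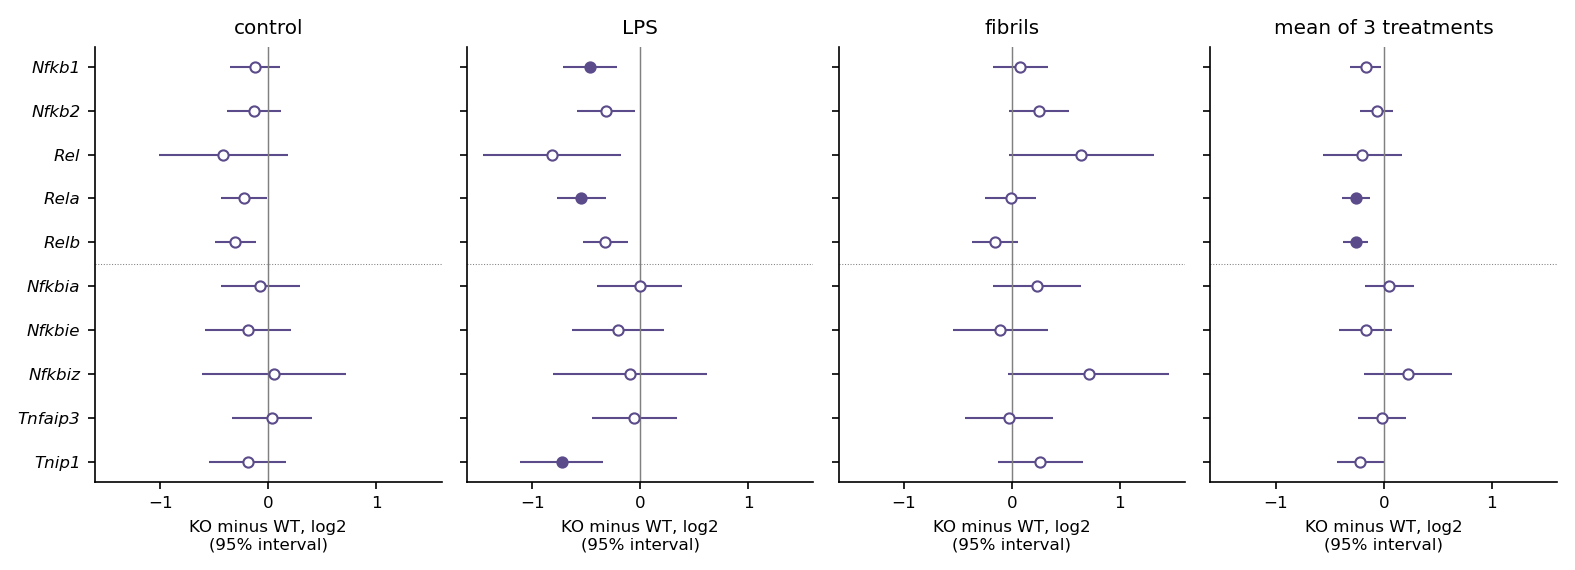
Difference of KO minus WT (log2) with its 95% interval for each member in controls, with LPS, with fibrils and averaged over the 3 treatments; filled points passed the test and open points did not. With LPS all 10 points lie below 0, from -0.82 to -0.01, whereas with fibrils 6 of 10 lie above 0.

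With fibrils no member differed between the genotypes by the test, against 8.94% of all genes in either direction (edgeR; 0 members at an unadjusted p under 0.05, and 0 called by DESeq2 and limma-voom). In this comparison 5 of 9 astrocyte and 5 of 6 fibroblast markers were higher in KO, and their part in the members' values was not tested. The values ran from -0.16 for Relb to 0.71 ± 0.36 for Nfkbiz (adjusted p = 0.230). Averaged over the 3 treatments, 2 members were lower in KO, Rela (-0.26 ± 0.06, adjusted p = 0.0106) and Relb (-0.26 ± 0.06, adjusted p = 0.00513), against 4.14% of all genes. Mean Rela was 83.25 CPM in KO and 121 CPM in WT with LPS, 63.8 and 74.7 CPM in controls, and 74.5 and 75.2 CPM with fibrils. The Rela difference was thus largest with LPS and small with fibrils. The Relb call was lost when counts were scaled by library size alone (adjusted p = 0.0828), a scaling that moved the median of all genes to 0.10 in this comparison. In the same average 5 of 9 astrocyte and 7 of 10 oligodendrocyte lineage markers were higher in KO, and their part in the result was not tested. Of 14346 genes, 1610 were called in this average in either direction, 594 of them lower.

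A response that differs between the genotypes was tested directly. The LPS response differed by genotype for none of the members, and 0% of all genes were called (edgeR; 3 members and 600 genes at an unadjusted p under 0.05; 0 members and 0 genes called by DESeq2 and by limma-voom). The fibril response likewise differed for none, again 0% of genes (2 members and 1667 genes at an unadjusted p under 0.05; 0 members called by DESeq2 and limma-voom, and 67 genes by DESeq2). The 3 members under an unadjusted p of 0.05 in the LPS response were all smaller in KO: Nfkb1 (-0.34 ± 0.17), Rela (-0.32 ± 0.15) and Tnip1 (-0.53 ± 0.26, each adjusted p = 0.992). A test added after these values were seen asked whether the gap between fibrils and LPS differed by genotype. No member was called by edgeR, against 1.12% of all genes (5 members at an unadjusted p under 0.05), although all 10 values were above 0 with a median of 0.54 against 0.03 over all genes. Tnip1 had the smallest adjusted p (0.99 ± 0.27, adjusted p = 0.0569, and 0.0126 to 0.113 over the settings). DESeq2 called 5 members (Nfkb1, Nfkb2, Rel, Rela and Tnip1), limma-voom 0. The share of 1.12% is that of edgeR, and the DESeq2 count has no share of all genes beside it here. In this contrast 4 of 6 fibroblast markers were called higher, and their part was not tested.

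Other genes of the pathway were read from lists, of which 57 of 61 genes were tested. Of 12 genes of the IKK complex and its upstream kinases, 4 were called higher with LPS in WT (Chuk, Tbk1, Map3k7 and Traf6) and 1 lower (Tab1, -0.71 ± 0.11), and in KO 2 were higher (Chuk and Ikbkg) and Tab1 was lower (-0.57 ± 0.12). Of all genes, 7.1% and 6.36% were called higher in these comparisons. With fibrils 6 were called higher in WT, against 13.8% of all genes, and 7 in KO, against 12.2%, where Tab1 was again lower (-0.44 ± 0.11). Chuk, which encodes the kinase IKKα, was higher in each comparison with control: by 0.32 ± 0.07 in WT and 0.30 ± 0.08 in KO with LPS, and by 0.58 ± 0.08 and 0.41 ± 0.07 with fibrils. Of 4 tested genes of the ubiquitin ligase that marks IκB proteins, none was called with LPS (edgeR), while Cul1 (0.67 ± 0.09), Fbxw11 (0.48 ± 0.09) and Rbx1 (0.37 ± 0.10) were called higher with fibrils in WT.

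Of the 3 other IκB genes listed, 2 were called higher with LPS in each genotype, 1 with fibrils in WT and 2 with fibrils in KO. The shares of all genes called higher were 7.1% (WT) and 6.36% (KO) with LPS, and 13.8% and 12.2% with fibrils. Nfkbid, which encodes a further nuclear IκB protein, rose by 3.40 ± 0.16 in WT and 2.96 ± 0.16 in KO with LPS, whereas with fibrils it was at 0.21 ± 0.16 (adjusted p = 0.364) and 0.12 ± 0.15 (adjusted p = 0.631). Its median was 11.8 CPM in WT controls, 114 CPM with LPS and 12.7 CPM with fibrils. Nfkbib, encoding IκBβ, rose in all 4 comparisons, by 1.65 ± 0.12 and 1.55 ± 0.12 with LPS and by 0.46 ± 0.12 and 0.84 ± 0.11 with fibrils. Bcl3, which encodes another nuclear IκB protein, was called only with fibrils in KO (1.02 ± 0.28), and was at 0.76 ± 0.28 with LPS in WT (adjusted p = 0.0672), 0.54 ± 0.29 with LPS in KO and 0.04 ± 0.31 with fibrils in WT. Of 12 other feedback genes, 4 were called higher with LPS in WT and 2 in KO, and 4 with fibrils in each genotype, while Pdlim2 was lower with LPS in KO and with fibrils in WT. Zc3h12a, an endoribonuclease gene, rose by 2.32 ± 0.26 in WT and 1.74 ± 0.26 in KO with LPS and by 1.10 ± 0.25 with fibrils in KO, and was at 0.53 ± 0.27 with fibrils in WT (adjusted p = 0.145). Tnip3, a relative of Tnip1, rose by 1.52 ± 0.18 and 1.67 ± 0.18 with LPS and by 1.18 ± 0.19 and 1.07 ± 0.17 with fibrils.

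The counts that follow stand against 7.1% (WT) and 6.36% (KO) of all genes called higher with LPS, and 13.8% and 12.2% with fibrils. In the noncanonical arm, 3 of 8 tested genes were called higher with LPS in WT and 2 in KO, of which Birc3, a ubiquitin ligase gene, rose by 1.38 ± 0.15 and 1.18 ± 0.15. With fibrils 3 were called higher in WT and 4 in KO, while Map3k14, the kinase that activates this arm, fell in WT (-0.65 ± 0.23, adjusted p = 0.0342). Among 18 tested target genes of NF-κB, 16 were called higher with LPS in each genotype, with a median of 3.78 in WT and 3.15 in KO. With fibrils 10 were called higher in WT and 14 in KO, with medians of 1.68 and 2.27. The cytokine gene Tnf rose by 4.32 ± 0.23 with LPS and 2.28 ± 0.22 with fibrils in WT. Sod2, a mitochondrial superoxide dismutase gene, rose more with fibrils than with LPS in WT (2.55 ± 0.15 against 1.32 ± 0.13) and was called higher in the direct comparison. None of the 57 listed genes was called between the genotypes by edgeR, in any treatment or on average. Of all 14346 genes, 46 were called between the genotypes in controls, 248 with LPS, 1282 with fibrils and 1610 on average, in either direction.

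Likeness was measured over 9804 genes whose mean log2 CPM was 2 or more. Those whose log2 CPM over the 30 libraries was most like the mean of the standardised members were Itga5 (Pearson r = 0.972), Gm6377 (0.969), Stx11 (0.966), Socs3 (0.962), Nfkbib (0.960) and Ripk2 (0.958). Those most like Nfkbia were Cxcl2 (0.988), Nlrp3 (0.988) and Maff (0.987), and those most like Rela were Ccnt1 (0.911), Ptpn23 (0.906) and Chd4 (0.906). Between members, the correlation over the 30 libraries was highest for Nfkbia and Tnfaip3 (0.975) and lowest for Nfkb1 and Tnfaip3 (0.554). Nfkb1 was closest to Nfkb2 (0.928). These values are descriptions across libraries of the same 6 groups.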

How the data were processed

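Bulk RNA of 30 libraries in 6 groups was analysed. Per the labels' protocols, total RNA depleted of ribosomal RNA was made into stranded libraries and sequenced as single-end reads of 100 bases. The authors deposited whole-number counts per Ensembl transcript without normalization. Per the submitters' processing notes, CASAVA 1.7.1 and STAR 2.4.2a were used with mm10. No label names the counting program or its use of strand, so counts of Nfkb2 and Tnip1, which genes on the other strand overlap, are less certain.

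Transcripts were summed to genes with GENCODE M21. Of 94647 transcripts 91320 matched, and the 3327 unmatched ones (0.779% to 0.891% of a library's counts) were left out. The filterByExpr function of edgeR left 14346 genes. One quasi-likelihood model of the 6 group means was fitted to all 30 libraries in edgeR 4.0.16 (TMM factors, R 4.3.3, 24 residual degrees of freedom), and 13 contrasts were tested, one of them added after the others were seen. Log2 CPM used a prior count of 2. TPM-like levels were counts per kilobase of transcript scaled to one total per library. The fit was tested on simulated data. The members, lists and tests were chosen with earlier results of these data known. Besides the members, up to 4 called genes with the smallest p of a list, genes behind small counts, Lrrk2 and the genes most like the members were named. Genes named beyond this rule were chosen after their values were seen. Skp1 was not analysed here.

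The alternatives tried were scaling by RLE or by library size alone, no filter, CPM of at least 1 in 4 libraries, DESeq2 1.42.0, limma-voom (limma 3.58.1), only the groups compared, protein-coding transcripts only, replicate number as a block and each library left out in turn. Leaving out 7 libraries that stand apart in depth, RNA composition or markers (KO control replicates 1, 4 and 6, KO fibril replicate 5, WT control replicate 6 and WT LPS replicates 1 and 6) was chosen after seeing the data.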

Additional observations from a re-analysis of the deposited data

Results flagged for a closer look

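Of 60 combinations of a member and a group, 3 held a library far from the rest of its group by Dixon's test, which chance alone flags in about 1 of 20 groups. Nfkb1 was at 355 CPM in WT LPS replicate 6, where the nearest library was at 239 CPM. Relb was at 138 CPM in the same library, with the nearest at 116 CPM. Nfkbiz was at 331 CPM in WT fibril replicate 2, with the nearest at 289 CPM.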

How the results depend on the processing

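Of 56 calls on members, 43 were kept under every alternative. For KO against WT with LPS the 3 members called became 1 when scaled by library size alone, 1 with no filter on low counts and 1 without the 7 libraries that stand apart, and leaving out 1 library at a time gave 0 to 3. Averaged over treatments, 2 members became 1 when scaled by library size alone. Of the 3 calls on transcript shares 0 were left with protein-coding transcripts only and 0 without the 7 libraries, and leaving out 1 library gave 0 to 4. With fewer libraries the smallest possible p is larger, and without the 7 libraries the KO fibril call could not have passed. Leaving out 1 library gave 10 members with LPS in WT, 8 to 10 in KO, 7 to 8 with fibrils in WT and 8 to 9 in KO. For fibrils against LPS it gave 7 to 8 in WT and 5 to 7 in KO. With protein-coding transcripts only, the LPS difference of Nfkb1 in KO turned to -0.0035 and its fibril against LPS difference in WT to 0.40 (adjusted p = 0.0163); the counts that this setting leaves out are those of non-coding transcripts. Scaling by library size alone put the all-gene median at -0.23 with LPS in WT and to -0.25 with fibrils in WT, and the calls of Nfkb1 and Rela with LPS in KO and of Nfkb2 and Nfkbie with fibrils in WT were lost.

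Replicate numbers did not pair the samples throughout: 25 of 64 same-numbered pairs correlated over 0.1 (median 0.0531, lowest -0.519, highest 0.655). For pairs of different numbers the median was -0.0056. Of 30 libraries, 12 had their best match in another group under the same number, so some pairing may be present. Under the replicate block 2 members were called for KO against WT with LPS (Nfkb1 adjusted p = 0.105), 7 with fibrils in WT, 10 with fibrils in KO and 8 for fibrils against LPS in WT.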
